A study of Mus musculus with 9 samples.

Results

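The genes for the proteins of the cytosolic ribosome were followed in RNA from whole sciatic dorsal root ganglia of C57BL/6 mice, the clusters of sensory neuron cell bodies, glia and other cells whose axons run in the sciatic nerve. The members are the rows whose gene symbol is Rps or Rpl followed by a number and at most one of the letters a, l, x or y, the stalk proteins Rplp0 to Rplp2, and Rpsa. Symbols of pseudogenes (ending in -ps) were left out. The rule finds 81 genes among 45904 rows, 49 of the large and 32 of the small ribosomal subunit, on 19 chromosomes. Of these, 79 are annotated as protein coding, and Rps4l and Rpl6l as pseudogenes in spite of their symbols. Rpl24 and Rpl32l fit the rule by symbol but are not analysed here.

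RNA was sequenced from 3 groups of 3 libraries, each made from the ganglia of 2 mice. The aged injury group held mice 20 to 22 months old, 24 h after injury of the sciatic nerve. The aged sham group held mice of the same age range, 24 h after sham surgery, and the young sham group mice 8 to 10 weeks old, 24 h after sham surgery. No young mice with a nerve injury are analysed here, so the response to injury is seen at 1 age only. Expression is given as FPKM, a level scaled for gene length and library size. Levels of different genes can be set side by side only with care. The annotation release behind the lengths was not given, and near-identical gene copies, described below, make many members' levels uncertain.

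Each ribosome holds 1 copy of nearly every one of these proteins beside the ribosomal RNAs, with the stalk proteins as the best-known exception, and cells make them in matched amounts. Their mRNAs typically begin with a C followed by a run of pyrimidines, the terminal oligopyrimidine motif, through which the growth regulator mTOR and the RNA-binding protein Larp1 control their translation as a group. In sensory neurons, ribosomal proteins are made for the cell body and for the axon, where ribosomes take part in local protein synthesis after injury. Most of these genes have also left many processed pseudogenes in mammalian genomes, spliced copies of the mRNA inserted elsewhere, which matter for how sequencing reads are assigned.

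The libraries held whole-read totals of 10210298 to 14973756 reads over the tested genes. They were recovered as the smallest whole numbers that fit the steps between the FPKM values. None of the 12 sensory neuron markers (such as Tubb3, Prph and Scn10a) was at 0 in all libraries, and their FPKM summed to 5768 to 6379 in aged injury, 6346 to 7065 in aged sham and 5919 to 6761 in young sham libraries. Atf3, a transcription factor induced in injured sensory neurons, was at 192 to 278 FPKM in aged injury and 16.3 to 42.3 FPKM in young sham libraries. In aged sham libraries Atf3 was at 27.1 and 27.3 FPKM in replicates 2 and 3, and at 95.6 FPKM in replicate 1. The labels give no sex. The female transcript Xist was at 9.77 to 13.1 FPKM in the aged injury libraries and in aged sham replicates 2 and 3, against at most 0.020 FPKM in young sham libraries. The Y-linked Ddx3y was at 13.8 to 15.7 FPKM in young sham libraries. Aged sham replicate 1 had both, at 1.75 and 10.9 FPKM, so sex and age cannot be told apart between aged and young libraries. Ddx3y was at most 0.013 FPKM in the aged injury libraries, so the 2 aged groups were not balanced for sex either. P-values measure the spread between pools of 2 mice.

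The start of the members' transcripts was read from RefSeq promoter sequences (GRCm38.p6), in windows of 30 bases centred on the annotated start, on the gene's own strand only. A window was found for 59 of the 81 members, and 33 of them (55.9%) held a run of at least 7 pyrimidines (C or T), against 5747 of 27025 genes (21.3%) in the whole promoter table. The longest member runs were 21 bases in Rpl7a and 19 in Rpl27a. The windows below show these longest runs, Rpl15 with a run of 17, and members whose level differed between groups; Rpl34 and Rpl35, with runs of 18, are not shown. Capitals mark the longest run of C or T in each window.
Rpl7a: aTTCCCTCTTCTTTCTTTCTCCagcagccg
Rpl27a: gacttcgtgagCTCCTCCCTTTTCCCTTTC
Rpl15: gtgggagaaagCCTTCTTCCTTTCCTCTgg
Rpl13a: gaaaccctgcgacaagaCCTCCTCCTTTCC
Rpl19: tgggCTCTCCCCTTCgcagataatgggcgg
Rps19: gagggagcggggtgtggagggCTCTCCCac
Rpsa: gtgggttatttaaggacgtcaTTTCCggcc
Rpl37a: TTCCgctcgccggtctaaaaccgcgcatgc
Rpl10: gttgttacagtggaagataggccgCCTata
The windows of Rpl7a (chr2:26910792-26910821, plus strand), Rpl27a (chr7:109519180-109519209, plus) and Rpl15 (chr14:18270972-18271001, minus) hold runs of 17 to 21. Those of Rpl13a (chr7:45128731-45128760, minus), Rpl19 (chr11:98026909-98026938, plus) and Rps19 (chr7:24884898-24884927, plus) hold runs of 13, 11 and 7. Those of Rpsa (chr9:120127751-120127780, plus), Rpl37a (chr1:72711245-72711274, plus) and Rpl10 (chrX:74270801-74270830, plus) hold runs of 5, 4 and 3. A run is a match of letters and not a mapped transcript start. Among members tested for differences, the 31 with a run of at least 7 had a median log2 change of 0.17 between aged sham and young sham, and the 25 with a shorter run 0.12.

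The deposited level differed widely between members, although the ribosome needs their products in like amounts. Mean FPKM over the 9 libraries reached 340 for Rpl4, 272 for Rpl8, 253 for Rplp1 and 193 for Rpl32. Rpl10l, a testis paralogue of Rpl10, was listed at 0 in every library, and the next lowest were Rpl39l at 0.12, Rpl35 at 0.14 and Rpl5 at 0.32 FPKM. The median member was at 5.63 FPKM, 17 members were at 50 FPKM or more and 40 were under 5 FPKM. The low end held proteins that no ribosome lacks, among them Rps6 (the substrate of S6 kinase) at 2.74 FPKM, Rpl11 at 1.38 FPKM and Rps27a (made as a fusion with ubiquitin) at 1.02 FPKM. Rpl11 and Rpl5 bind 5S ribosomal RNA and the p53 regulator Mdm2.

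**Figure D1:**
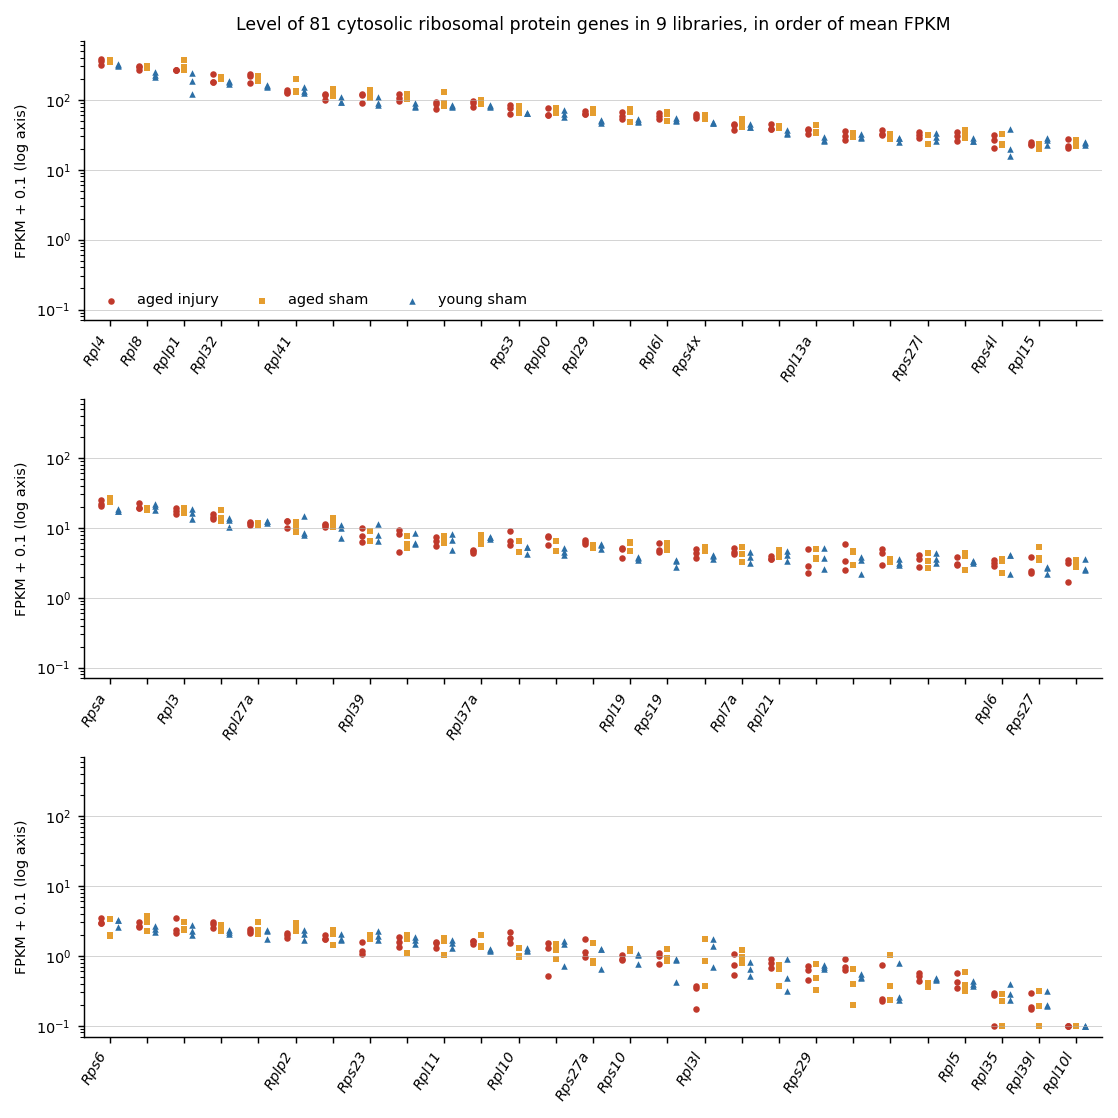
FPKM + 0.1 on a log axis for each of the 81 members, in order of mean level from the top left, with names for members described in the text. Each point is 1 library, with aged injury, aged sham and young sham side by side. Levels run from 340 FPKM for Rpl4 to 0 for Rpl10l, and the spread between members is far wider than that between libraries.

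Near-identical copies of these genes carried much of the signal. A copy was counted where a transcript of another gene in GENCODE M21 (GRCm38) matched at least 80% of a member's coding sequence at 90% identity or more. At least 1 copy was found for 76 of the 81 members, with a median of 9 and as many as 77 for Rpl21. The table holds 639 copies outside the members, 610 of them annotated as pseudogenes. For 59 members the copies together had a higher mean FPKM than the member itself. A copy was counted with the whole FPKM of its gene, also where only 1 transcript of that gene matched. Sums over copies can therefore hold signal from other sequence of these genes. An example is Wdr89, the only copy of Rplp2, at 39.3 FPKM and not annotated as a pseudogene. Rps29 was at 0.51 FPKM and its copy Gm14303, whose matched sequence is identical, at 510 FPKM. Rps6 was at 2.74 FPKM and Rps6-ps4 at 208 FPKM, while Rpl5 was at 0.32 FPKM and Gm15500 at 180 FPKM. The copies named here and below were chosen after their values were seen.

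Members whose coding sequence is their own had the higher levels. For 56 members, under 20% of the 50-base windows of the coding sequence were unique among all transcripts, and their median level was 3.52 FPKM. The 15 members with at least 50% of these windows unique had a median of 87.6 FPKM. The 5 members with no copy included Rpl8 at 272, Rps3 at 70.6, and the tissue-restricted paralogues Rpl3l at 0.76 and Rpl39l at 0.12 FPKM. Across the 81 members, mean FPKM and the unique share had a Spearman rho of 0.50, given as a description, since members share libraries and copies. Between mean FPKM and the number of copies rho was only -0.23. Over whole transcripts the unique share can be far higher, as in Rps29 with 81.1%, against 0% in its coding sequence. With its copies added, the median member was at 125 FPKM and 59 members were at 50 FPKM or more. Reads from a member and from a near-identical copy cannot be told apart in these values, so the level of a member with copies is uncertain.

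**Figure D2:**
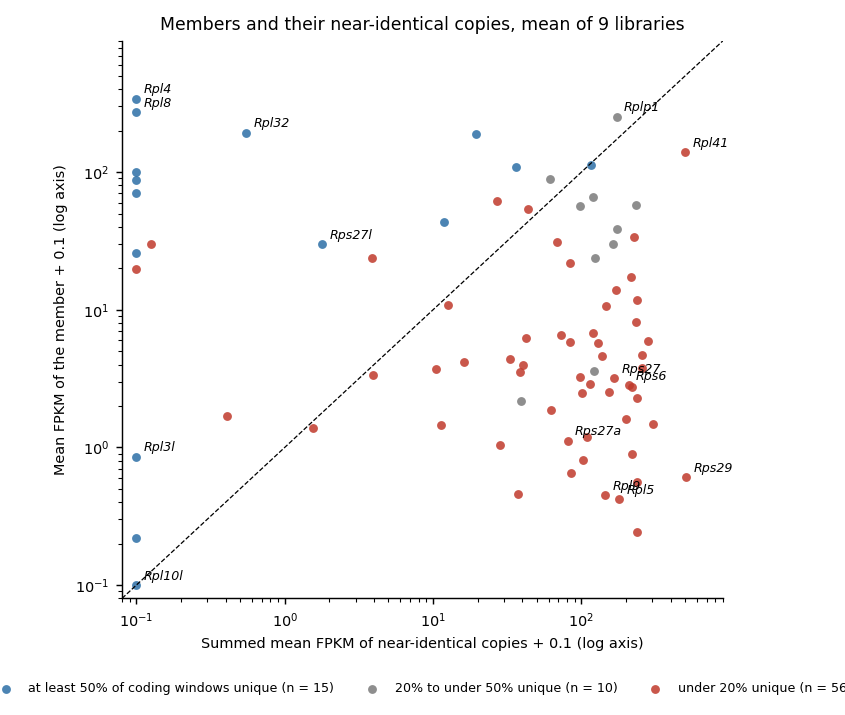
Mean FPKM of each member (vertical) against the summed mean FPKM of its near-identical copies (horizontal), both + 0.1 on log axes, with equality as the dashed line. Members with mostly unique coding sequence lie mainly at the upper left (Rpl4, Rpl8, Rpl32), and most members with under 20% unique windows lie below the line, such as Rps29 and Rpl5.

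The Rps27 family shows how close the sequences are. The coding sequence of Rps27 (chr3:90212522-90213651, minus strand, GRCm38) and that of the retrogene Rps27rt (chr9:114982366-114982739, minus) are the same at all 255 bases, whereas that of the paralogue Rps27l (chr9:66946086-66949516, plus), a p53 target gene, differs at 61. The coding sequences of Rps27 and Rps27l follow, from GENCODE M21, with capitals where Rps27l differs from Rps27.
Rps27: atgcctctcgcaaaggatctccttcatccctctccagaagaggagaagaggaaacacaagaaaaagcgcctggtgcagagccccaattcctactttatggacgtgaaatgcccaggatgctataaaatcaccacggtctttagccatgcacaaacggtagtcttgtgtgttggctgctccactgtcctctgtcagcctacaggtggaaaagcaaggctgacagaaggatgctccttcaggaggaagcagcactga
Rps27l: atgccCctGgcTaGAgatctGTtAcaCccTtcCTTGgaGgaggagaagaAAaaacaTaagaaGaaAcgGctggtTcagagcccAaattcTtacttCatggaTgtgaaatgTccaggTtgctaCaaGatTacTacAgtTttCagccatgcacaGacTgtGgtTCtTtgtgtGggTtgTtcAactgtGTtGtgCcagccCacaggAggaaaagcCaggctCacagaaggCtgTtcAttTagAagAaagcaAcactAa
Rps27 had 2.19, 2.29 and 3.77 FPKM in aged injury, 3.35, 5.27 and 3.65 FPKM in aged sham and 2.68, 2.52 and 2.11 FPKM in young sham libraries. Rps27rt had 127, 285 and 208 FPKM in aged injury, 199, 231 and 154 FPKM in aged sham and 92.7, 90.8 and 112 FPKM in young sham libraries. All 6 aged libraries lay above the young ones for Rps27rt, by a log2 change of 0.97 between aged sham and young sham (limma, adjusted p = 0.065). Rps27l was near 30 FPKM in each group, at 31.6 ± 3.1, 28.6 ± 4.9 and 29.5 ± 3.6 FPKM in aged injury, aged sham and young sham libraries (SD, n = 3 each).

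Age was compared in the sham groups. Differences were tested with limma on log2(FPKM + 0.1) in 1 fit of all 9 libraries, over the 17601 genes that averaged 0.2 FPKM or more, and called at a Benjamini-Hochberg adjusted p under 0.05. Of the 81 members, 78 passed this filter. Of these, 5 were higher in aged sham than in young sham ganglia, Rpl29, Rpsa, Rps19, Rpl8 and Rpl19, and 0 were lower. Rpl10l, Rpl39l and Rpl35 did not pass. Among all genes tested, 2.53% were called higher and 1.49% lower. At an unadjusted p under 0.05, limma had 18 members higher and 1 lower, against 15.9% and 10.4% of all genes tested. Limma voom on recovered reads called 7 members higher and 0 lower, against 3.39% and 2.8% of all genes. The members' median log2 change was 0.17, against 0.05 over all genes tested. A change above 0 was seen in 57 of 78 members (73.1%), against 56.7% of all genes tested. All aged sham libraries lay above all young sham libraries for 20 members (25.6%) and below them for 1, against 17.7% and 11.5% of all genes tested. With the aged injury libraries counted too, all 6 aged libraries lay above all young sham libraries for 11 members (14.1%), against 8.96% of all genes tested, and below them for 0, against 6.28%. The 32 members of the small subunit had a median log2 change of 0.24, and the 46 tested members of the large subunit 0.13.

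Rpl29, a large-subunit protein also known for binding heparin and heparan sulfate, had 64.6, 73.8 and 72.8 FPKM in aged sham libraries, against 49.3, 51.5 and 46.0 FPKM in young sham libraries. It was 1.44-fold higher on the log2(FPKM + 0.1) scale (log2 change 0.52, SE 0.073, limma adjusted p = 0.0167). The groups did not overlap. Rpl29 had 61 copies, summed at 26.8 FPKM, and 9.68% of the 50-base windows of its coding sequence were unique. The sum of Rpl29 and its copies was 1.31 times the young sham level in aged sham libraries. Rpsa, the small-subunit protein known also as the laminin receptor precursor, had 26.5, 25.5 and 23.6 FPKM in aged sham, against 17.5, 18.7 and 17.2 FPKM in young sham libraries. Its log2 change was 0.50 (SE 0.083, adjusted p = 0.0269), again with no overlap. The copy Rpsa-ps10 was at 64.4 FPKM, above Rpsa. The sum of Rpsa and its copies was 1.30 times the young sham level in aged sham libraries.

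Rps19, a small-subunit protein whose human gene is the one most often mutated in Diamond-Blackfan anaemia, had 5.27, 5.89 and 4.72 FPKM in aged sham, against 2.66, 3.35 and 3.29 FPKM in young sham libraries. It showed the largest of the 5 called changes, 1.69-fold (log2 change 0.76, SE 0.14, adjusted p = 0.0344). Every aged sham library was above every young one. The copy Rps19-ps6 was at 136 FPKM, far above Rps19. The sum of Rps19 and its copies was 1.33 times the young sham level in aged sham libraries. Rpl8, a core protein of the large subunit near its catalytic centre and a member with no copy, had 302, 308 and 288 FPKM in aged sham, against 223, 251 and 211 FPKM in young sham libraries (log2 change 0.39, SE 0.078, adjusted p = 0.0367). Rpl19 had 6.08, 6.05 and 4.64 FPKM in aged sham, against 3.64, 3.78 and 3.33 FPKM in young sham libraries (log2 change 0.62, SE 0.15, adjusted p = 0.0497). The copy Rpl19-ps11 was at 250 FPKM, far above Rpl19, with a log2 change of 0.31 that was not called (adjusted p = 0.111).

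Some of the larger differences did not pass the test. Rplp1, a protein of the ribosomal stalk that recruits elongation factors, had 374, 291 and 265 FPKM in aged sham, against 120, 241 and 187 FPKM in young sham libraries. The groups did not overlap, the young libraries ranged widely, and the log2 change of 0.81 was not called (adjusted p = 0.069). Its copy Gm10073 had 212, 161 and 157 FPKM in aged sham, against 59.6, 133 and 93.6 FPKM in young sham libraries, with young sham replicate 1 lowest and aged sham replicate 1 highest in both genes. Rps27 had a log2 change of 0.70 (adjusted p = 0.0975). Among members that averaged 1 FPKM or more, the lowest changes were those of Rps6 with -0.36, Rpl15 with -0.26, Rpl10 with -0.18 and Rpl6 with -0.15, none of them called.

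**Figure D3:**
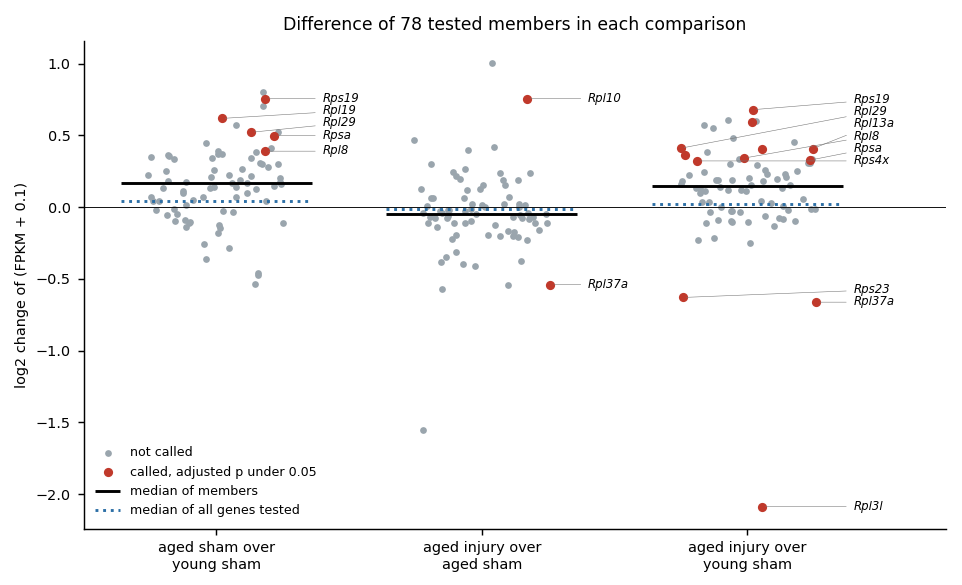
Log2 change of (FPKM + 0.1) for the 78 tested members in the 3 comparisons. Points are members, grey where not called and red, with the names of members described in the text, where the adjusted p was under 0.05, with the members' median (solid line) and that of all genes tested (dotted). The members' medians were 0.17, -0.05 and 0.15, and 5, 2 and 12 members were called.

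The age calls rested on few libraries. When 1 of aged sham replicates 2 and 3 or young sham replicates 1 and 3 was left out, 0 members were called higher by limma, while 14 to 22 were higher at an unadjusted p under 0.05. The count was 2 without aged injury replicate 1, 3 without aged injury replicate 3 or aged sham replicate 1, and 6 without aged injury replicate 2. It was 7 higher and 1 lower without young sham replicate 2. The count over all genes ranged between 34 and 1571. Rpl29 and Rpsa were each called in 5 of these 9 fits and Rpl19 in 1, and all 5 genes kept their direction in every one.

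Cell type markers also differed between these groups, and fewer or more cells of a type cannot be told apart from less or more RNA per cell in bulk ganglia. The summed FPKM of 10 macrophage markers was 98.8 to 155 in aged sham and 56.4 to 63.6 in young sham libraries, with 6 of 10 called higher. That of 8 neutrophil and bone marrow markers was 333 to 603 in aged sham and 144 to 233 in young sham libraries, with 6 of 8 called higher. The 10 B and plasma cell markers summed to 121 to 804 FPKM in aged sham and 33.7 to 40.8 FPKM in young sham libraries, with 1 of 10 called, and the 10 T cell markers to 5.59 to 46.4 FPKM in aged sham and 2.07 to 3.69 FPKM in young sham libraries, with 0 of 10 called by limma or voom and 6 of 10 higher at an unadjusted p under 0.05. The 6 markers of myelinating Schwann cells summed to 1775 to 1887 FPKM in aged sham and 2673 to 3077 FPKM in young sham libraries, with 2 of 6 called lower. Among the other lists, 2 of 7 satellite glia markers and 2 of 12 sensory neuron markers were called lower, and 1 of 6 endothelial markers higher. Of 6 fibroblast markers limma called 0, with 1 lower at an unadjusted p under 0.05, and voom called 1 lower. Red blood cell markers summed to 305 to 482 FPKM in aged sham and 134 to 374 FPKM in young sham libraries, with 0 of 6 called by limma or voom and 2 at an unadjusted p under 0.05. Of 5 tested markers of proliferating cells, both tools called 0, with 0 at an unadjusted p under 0.05. None of these markers was at 0 in all libraries. Their part in the members' differences was not tested.

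The injury comparison asks how the aged ganglia differ 24 h after the nerve lesion. In aged injury ganglia 1 member was higher than in aged sham ganglia, Rpl10, and 1 was lower, Rpl37a, out of 78. Over all genes tested 2.45% were called higher and 1.65% lower. At an unadjusted p under 0.05, 3 members were higher and 6 lower, against 9.39% and 10.4% of all genes tested. Voom on recovered reads called 0 members in either direction, against 3.45% of all genes higher and 1.87% lower. Without aged sham replicate 1, the sham library with the highest Atf3 and with Ddx3y at 10.9 FPKM, limma called 0 members. At an unadjusted p under 0.05 that fit had 3 members higher and 5 lower, and its share over all genes is not given here. The members' median log2 change was -0.05, against -0.01 over all genes. A change above 0 was seen in 30 of 78 members (38.5%), against 47.7% of all genes tested. Groups did not overlap for 3 members higher and 5 lower in injury, against 11.7% and 13.7% of all genes tested. Of the 28 members at 20 FPKM or more, limma called 0, with 0 at an unadjusted p under 0.05, and voom likewise called 0.

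Rpl10 is an X-linked gene whose product joins the large subunit late in its assembly. It had 2.08, 1.42 and 1.72 FPKM in aged injury, against 0.908, 1.18 and 0.870 FPKM in aged sham libraries. It was 1.69-fold higher with injury (log2 change 0.76, SE 0.17, adjusted p = 0.0448), with no overlap. Rpl10 had 23 to 69 recovered reads per library, and 0% of the 50-base windows of its coding sequence were unique. It was called in 1 of 9 fits with a library left out, that without aged injury replicate 2.

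Rpl37a, a zinc-binding protein of the large subunit, had 4.24, 4.75 and 4.53 FPKM in aged injury, against 6.38, 7.83 and 5.72 FPKM in aged sham libraries. It was lower with injury by a log2 change of -0.54 (SE 0.11, adjusted p = 0.0304), and lay below aged sham in all 3 libraries. Young sham libraries were at 6.88, 7.30 and 7.36 FPKM. Rpl37a had 33 to 53 recovered reads per library, and its copy Gm4149 was at 42.3 FPKM. It was called in 3 of 9 fits with a library left out, and lost its call without any 1 of aged injury replicates 1 to 3, aged sham replicates 1 and 2 or young sham replicate 1. The sum of Rpl37a and its copies was 1.06 times the aged sham level in aged injury libraries.

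Among members that averaged 1 FPKM or more, other large changes with injury were not called, among them a larger fall on the log2 scale than that of Rpl37a. The changes included 0.40 for Rps6 and 0.30 for Rps27a on the log2 scale, and -0.57 for Rps27, -0.54 for Rps23 and -0.39 for Rplp2. Of the 10 macrophage markers 1 was called higher with injury, 1 of 7 satellite glia markers was called higher, 1 of 12 sensory neuron markers lower (12 of 12 had a change below 0) and 1 of 6 endothelial markers lower. Of the 8 neutrophil and bone marrow markers 3 were called lower, with sums of 181 to 312 FPKM in aged injury and 333 to 603 FPKM in aged sham libraries. Red blood cell markers summed to 182 to 296 FPKM in aged injury and 305 to 482 FPKM in aged sham libraries, without overlap, with 0 of 6 called by limma or voom and 1 lower at an unadjusted p under 0.05. Their part was not tested.

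**Figure D4:**
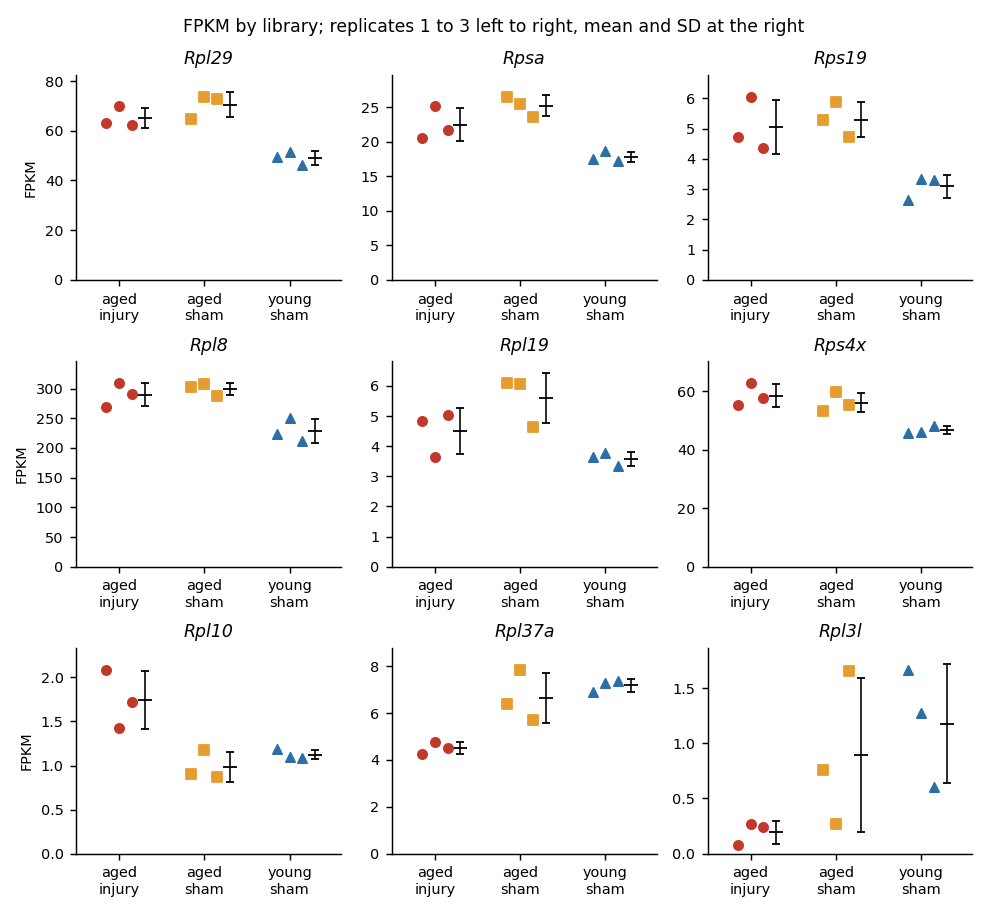
FPKM of 9 members in each library, with mean and SD (n = 3). Rpl29, Rpsa, Rps19, Rpl8 and Rps4x lie higher in both aged groups than in young sham. Rpl10 is highest and Rpl37a lowest in aged injury, and Rpl3l is spread widely in both sham groups.

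Injured aged ganglia were also set against young sham ganglia, a comparison in which age and injury differ together and which shares libraries with both others. Here 9 members were higher, among them Rpl29, Rps4x, Rps19, Rpl8, Rpsa and Rpl13a, and 3 lower, Rpl37a, Rpl3l and Rps23. Over all genes tested 8.2% were called higher and 4.89% lower. At an unadjusted p under 0.05, 17 members were higher and 3 lower, against 16.8% and 12.7% of all genes tested. Voom called 9 members higher and 2 lower, against 8.81% and 5.8% of all genes. The members' median log2 change was 0.15, against 0.02 over all genes. A change above 0 was seen in 54 of 78 members (69.2%), against 53.2% of all genes tested. Injured libraries lay above all young ones for 19 members and below for 3, against 19.9% and 15.5% of all genes. The count of members higher was 1 when young sham replicate 1 was left out, 3 when young sham replicate 3 or aged injury replicate 3 was, and 5 when aged injury replicate 2 was. It was 8 or 9 in the other fits. The count lower was 2 without aged injury replicate 3 or aged sham replicates 2 or 3, and 1 in the other fits. In the same comparison 9 of 10 macrophage, 3 of 10 B and plasma cell and 2 of 10 T cell markers were called higher, and 3 of 6 myelinating Schwann cell and 3 of 12 sensory neuron markers lower. Of 7 satellite glia markers 1 was called higher and 2 lower, and of 6 fibroblast markers 1 lower. Macrophage marker sums were 104 to 145 FPKM in aged injury and 56.4 to 63.6 FPKM in young sham libraries. The part of these markers in the members' differences was not tested.

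Rpl29 had 63.2, 69.8 and 62.3 FPKM in aged injury libraries, all above the young sham libraries given above (log2 change 0.41, SE 0.073, adjusted p = 0.00957). Rps4x, the X-linked S4 protein of the small subunit, had 55.3, 62.7 and 57.6 FPKM in aged injury, against 45.9, 46.0 and 48.3 FPKM in young sham libraries (log2 change 0.32, SE 0.064, adjusted p = 0.0138). Aged sham libraries had 53.3, 59.6 and 55.3 FPKM of Rps4x, also above every young one, with a log2 change of 0.26 that just missed the threshold (adjusted p = 0.0535). The part of sex in the differences of this X-linked gene was not tested. Between aged injury and aged sham the log2 change of Rps4x was 0.06 (adjusted p = 0.655). The copies of Rps4x summed to 43.8 FPKM, and 9.96% of the 50-base windows of its coding sequence were unique.

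Rpl13a, a large-subunit protein also known from translational control of inflammatory mRNAs in human myeloid cells, had 32.3, 38.4 and 37.4 FPKM in aged injury, against 25.3, 26.9 and 29.0 FPKM in young sham libraries (log2 change 0.41, adjusted p = 0.0396). The copy Gm11478 of Rpl13a was at 218 FPKM, far above Rpl13a. Rps19, Rpl8 and Rpsa had log2 changes of 0.68, 0.34 and 0.33, with adjusted p-values of 0.0174, 0.023 and 0.0328.

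Of the lower members, Rpl37a had a log2 change of -0.66 (adjusted p = 0.00716) and was called in each fit with a library left out. Rps23, a protein of the decoding centre, had 1.06, 0.965 and 1.48 FPKM in aged injury, against 1.61, 1.81 and 2.13 FPKM in young sham libraries (log2 change -0.63, adjusted p = 0.0449), from 10 to 18 recovered reads. It was called in 1 of 9 fits with a library left out. Rps23 had 16 copies, and 0% of the 50-base windows of its coding sequence were unique. Rpl29 and Rpl37a were each called in 9 of 9 such fits, Rps19 and Rps4x in 8, all but that without young sham replicate 1.

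Rpl3l, the paralogue that takes the place of Rpl3 in heart and skeletal muscle ribosomes, had 0.075, 0.266 and 0.244 FPKM in aged injury, against 1.66, 1.27 and 0.600 FPKM in young sham libraries (log2 change -2.09, SE 0.58, adjusted p = 0.0443). Aged sham libraries had 0.756, 0.273 and 1.65 FPKM, all above the aged injury libraries, and overlapped the young sham libraries. The 7 skeletal muscle markers summed to 3.26 to 34.1 FPKM in aged injury, 12.8 to 234 FPKM in aged sham and 36.7 to 339 FPKM in young sham libraries, with 0 of 7 called in any comparison by limma or voom and 4 of 7 lower in aged injury than in young sham at an unadjusted p under 0.05. Within each sham group, the library with the least muscle marker signal also had the least Rpl3l, at 12.8 FPKM of markers in aged sham and 36.7 FPKM in young sham. The part of muscle tissue in the difference was not tested. Rpl3l rested on 2 to 36 recovered reads per library and was called in 2 of 9 fits with a library left out. Rpl3 itself was at 17.3 ± 1.5 FPKM in aged injury, 18.1 ± 1.7 FPKM in aged sham and 16.1 ± 2.7 FPKM in young sham libraries (SD, n = 3 each) and was called in none of the comparisons.

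Other members known for single roles were not called. Rps6 had 2.81, 2.81 and 3.34 FPKM in aged injury, 1.91, 3.22 and 1.81 FPKM in aged sham and 3.11, 2.49 and 3.16 FPKM in young sham libraries, with overlapping groups. Rpl5 and Rpl11 had log2 changes of 0.05 and -0.05 between aged sham and young sham, and 0.07 and 0.02 between aged injury and aged sham. The stalk base Rplp0 had 0.11 and -0.08, Rplp2 0.37 and -0.39, and Rpl41, the shortest of the proteins, 0.15 and -0.20 in these comparisons. For Rpl39, whose paralogue Rpl39l is known from testis, they were -0.04 and -0.06. Rpl5 rested on 11 to 25 and Rpl11 on 32 to 58 recovered reads per library.

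Summed, the members took a larger share of the FPKM in aged than in young ganglia. Members at high FPKM weigh most in this sum. Their summed share was 0.795, 0.915 and 0.851% in aged injury, 0.905, 0.907 and 0.840% in aged sham and 0.688, 0.774 and 0.725% in young sham libraries. The share of the 639 copies was 2.41, 2.93 and 2.71% in aged injury, 2.78, 2.79 and 2.62% in aged sham and 2.18, 2.40 and 2.30% in young sham libraries. Every aged library was above every young one in both sums. Aged injury and aged sham overlapped. Libraries of 1 group also differed as a whole, with 56 of 78 members above their group mean in aged injury replicate 2, 13 in aged sham replicate 3 and 18 in young sham replicate 1. No p-value is given for these sums.

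**Figure D5:**
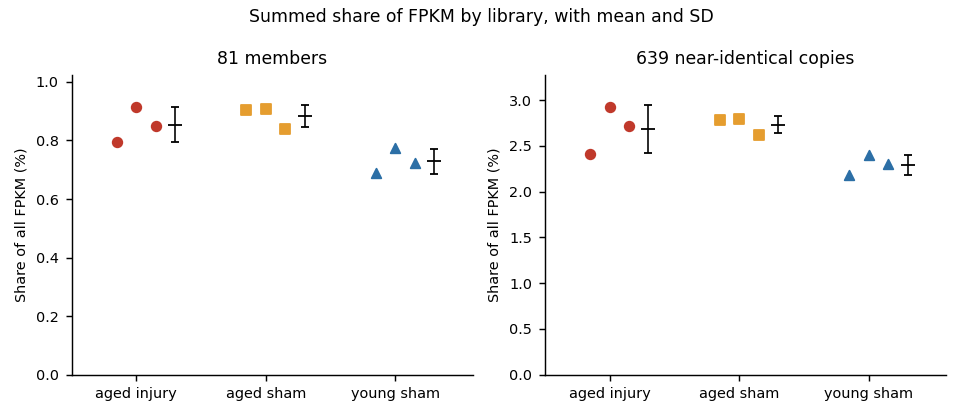
Summed FPKM of the 81 members (left) and of the 639 near-identical copies (right) as a percentage of all FPKM in each library, with mean and SD (n = 3). All 6 aged libraries lie above the 3 young sham libraries in both panels, and the 2 aged groups overlap.

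The copies were compared in the same way. Of 180 copies that passed the filter, limma called 14 higher and 0 lower in aged sham than in young sham, with a median log2 change of 0.23. Of all genes tested 2.53% and 1.49% were called. At an unadjusted p under 0.05, 51 copies were higher and 5 lower, against 15.9% and 10.4% of all genes. In aged injury against aged sham, limma called 0 copies higher and 1 lower, against 2.45% and 1.65% of all genes. At an unadjusted p under 0.05, 3 copies were higher and 6 lower, against 9.39% and 10.4% of all genes. In aged injury against young sham, 18 copies were higher and 1 lower, against 8.2% and 4.89% of all genes. Gm14303, the copy of Rps29, had 617, 576 and 554 FPKM in aged sham, against 361, 450 and 398 FPKM in young sham libraries (log2 change 0.54, adjusted p = 0.034). Rps10-ps1 had 39.6, 37.8 and 31.2 FPKM in aged sham, against 11.7, 19.2 and 17.1 FPKM in young sham libraries, a log2 change of 1.19 (adjusted p = 0.024), while Rps10 itself had a log2 change of 0.39 (adjusted p = 0.193). The copy of Rpl41 that was lower with injury, Gm10180, had 2.38, 2.81 and 3.08 FPKM in aged injury, against 4.98, 4.60 and 4.98 FPKM in aged sham libraries (log2 change -0.80, adjusted p = 0.008). When each member was summed with its copies, the aged sham sums lay above all young sham sums for 47 of 80 members and below for 0, with a median ratio of 1.16. No such share was computed for sums over other genes, and among single genes it was 17.7% above and 11.5% below. Between aged injury and aged sham, 1 sum was higher and 2 were lower without overlap, with a median ratio of 0.969. Sums of members that share copies are not independent.

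Genes of the same machinery that the symbol rule leaves out were read from lists. Of 7 further ribosomal proteins, among them Rps3a1, Fau, Rack1, Rpl22l1, Rpl7l1 and Rpl36al, limma and voom called 0 in any comparison. At an unadjusted p under 0.05, 2 were higher between aged sham and young sham, 0 with injury and 1 between aged injury and young sham. Rack1, the scaffold protein on the small subunit, was at 46.4, 46.2 and 40.7 FPKM in aged sham, against 35.0, 37.2 and 33.5 FPKM in young sham libraries (log2 change 0.33, adjusted p = 0.0958). Rps3a1 was at 31.0 FPKM on average, with log2 changes of -0.07 between the sham groups and 0.17 with injury. Mean levels were 23.3 FPKM for Rpl36al, 21.2 FPKM for Rpl7l1, 17.6 FPKM for Rpl22l1 and 2.05 FPKM for Fau.

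The 75 tested proteins of the mitochondrial ribosome were listed too. Their median log2 change was 0.07 between aged sham and young sham, with 2 higher and 1 lower, and -0.17 between aged injury and aged sham, with 1 lower, 0 higher and 28 lower at an unadjusted p under 0.05. With injury, 5 of 75 had a change above 0, and 30 of the 78 cytosolic members had one, against 47.7% of all genes tested. All aged injury libraries lay below all aged sham libraries for 36 of 75 (48%), against 13.7% of all genes tested. Mrpl52 was higher in aged sham at 74.7, 61.1 and 62.2 FPKM, against 42.5, 45.3 and 47.6 FPKM in young sham libraries (adjusted p = 0.0253), and so was Mrps24 (log2 change 0.35, adjusted p = 0.044). Mrpl18 was lower (log2 change -0.37, adjusted p = 0.0344). With injury, Mrps11 was lower, at 5.30, 5.74 and 4.98 FPKM, against 7.12, 6.73 and 7.26 FPKM in aged sham libraries (adjusted p = 0.0362). In aged injury against young sham, 2 were higher and 8 lower, among them Mrpl18, Mrpl39, Mrps9 and Mrpl46 with log2 changes of -0.42, -0.33, -0.23 and -0.25.

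Among 35 tested initiation factors, Eif1 was higher (log2 change 0.24, adjusted p = 0.0361) and Eif1ax lower (-0.30, adjusted p = 0.0414) in aged sham than in young sham, and Eif1a (0.40, adjusted p = 0.0416) and Eif4e2 (0.28, adjusted p = 0.0427) were higher with injury. In aged injury against young sham 3 rose, Eif1, Eif3b and Eif4e2, and 0 fell. Of 10 elongation factors limma called 0 between the sham groups or with injury, with 3 and 0 at an unadjusted p under 0.05, and voom called 1 lower and 0. Eif5a2 was lower in aged injury than in young sham (log2 change -0.37, adjusted p = 0.0407).

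Other mRNAs known to carry the terminal oligopyrimidine motif had members called in both directions with age. Of 12, Vim was higher at 276, 301 and 316 FPKM in aged sham, against 232, 230 and 207 FPKM in young sham libraries (log2 change 0.41, adjusted p = 0.0297). Nap1l1 (-0.33, adjusted p = 0.0333) and Npm1 (-0.39, adjusted p = 0.0433) were lower. With injury limma and voom called 0 of 12, with 2 higher at an unadjusted p under 0.05 and a median log2 change of 0.09. Vim and Nap1l1 were also called in aged injury against young sham, higher and lower.

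Genes that build or control ribosomes were read from further lists. Of 30 ribosome biogenesis genes, Nop58, a core protein of box C/D small nucleolar particles, had 21.2, 21.5 and 22.4 FPKM in aged injury, against 16.0, 17.5 and 15.4 FPKM in aged sham libraries (log2 change 0.41, adjusted p = 0.00917). It was also lower in aged sham than in young sham (-0.28, adjusted p = 0.0415). No other gene of the list was called by limma in these comparisons, and Sbds, Nop14 and Tcof1 were higher in aged injury than in young sham. Of 20 genes of the mTOR pathway and regulators of these mRNAs, Myc, a transcription factor that drives ribosome genes, had 8.95, 7.54 and 8.67 FPKM in aged injury, against 5.60, 5.58 and 5.66 FPKM in aged sham libraries (log2 change 0.57, adjusted p = 0.00691). Cnbp was higher too (0.25, adjusted p = 0.0488), and in aged injury against young sham Myc, Cnbp and Eif4ebp1 were higher. Between the sham groups limma called 0 of the 20, with 10 at an unadjusted p under 0.05, and voom called 2 lower.

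Of 10 genes of ribosomal stress and p53, Cdkn1a, the cyclin-dependent kinase inhibitor p21, had 70.3, 56.2 and 63.3 FPKM in aged injury, against 47.8, 38.0 and 32.6 FPKM in aged sham libraries (log2 change 0.69, adjusted p = 0.0238). Sesn2 was higher too (0.57, adjusted p = 0.0326), and both were called in aged injury against young sham. Between aged sham and young sham limma and voom called 0 of the 10, with 3 at an unadjusted p under 0.05.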

How the data were processed

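The authors deposited 1 table of FPKM with a column for each of the 9 libraries. Per the submitters' processing notes the reads were on build mm10 and the tools included HTSeq 0.6.0 beside TopHat2 2.0.12 with Bowtie2 2.2.3, and, in R 3.1.1, limma 3.22.7 and edgeR 3.8.6, with no role given. Annotation release, strand and the treatment of reads with several matches were not given in the sources used here. If such reads were dropped or split, a member and its near-identical copy would both be affected, and not the member alone. Copies together were above the member for 59 of the 81 members. Rps29, for example, was at 0.51 FPKM and its copy Gm14303, whose matched sequence is identical, at 510 FPKM. Rpl15 went the other way, at 23.7 FPKM against 3.80 FPKM for its copies together. How reads were assigned between such sequences was not tested. From the FPKM, log2(FPKM + 0.1) was fitted with limma 3.58.1 in R 4.3.3 (trend) over all 9 libraries, on the 17601 genes that averaged 0.2 FPKM or more, with Benjamini-Hochberg adjustment over all of them. A fold change on this scale understates the change of low genes. Whole reads were recovered from the FPKM steps for 99.2% of tested genes (within 0.01 of a whole number, over at most 20000 reads) and used for limma voom, an alternative chosen after seeing the data. The smallest whole numbers that fit were taken, so a gene's reads can be too low by a whole factor common to all libraries. Totals of 10210298 to 14973756 reads limit precision for the 21 members with under 20 recovered reads in a library. Copies were found with blastn 2.17.0. All columns were used, and the fit was checked on simulated data. Members are named if called (up to 10 by smallest p), among the 4 largest rises or falls at a mean level of 1 FPKM or more, among the 4 highest or lowest levels, in a paralogue pair or of a textbook role. Of the pathway lists, up to 4 called genes are named. Some items that fit this rule are not reported here. The members and lists were chosen with earlier results of these data known.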

Additional observations from a re-analysis of the deposited data

How the results depend on the processing

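The members' median log2 change kept its sign under every other setting that kept all 9 libraries, or both groups compared, between 0.09 and 0.17 for aged sham against young sham, -0.07 and -0.04 for aged injury against aged sham, and 0.07 and 0.16 for aged injury against young sham. Counts of calls moved more, and the cause was not tested. For aged sham against young sham, members higher were 2 without a filter on low values, 8 with a filter at 1 FPKM, 3 with the replicate block and 2 with only the groups compared. All genes called were 239 without a filter, 101 with the block, 119 with only the groups compared and 1081 with voom, against 707. For aged injury against aged sham, members higher were 0 under all of these, equal medians and quantile normalization, and members lower were 0 with the block, only the groups compared or voom. All genes called were 273 with the block and 380 with only the groups compared, against 723. For aged injury against young sham, members higher were 5 without a filter, and members lower 1 without a filter, with a pseudocount of 1 FPKM or with the block. With 1 library left out, members higher, members lower and all genes called ranged over 0 to 7, 0 to 1 and 34 to 1571 for aged sham against young sham, over 0 to 1, 0 to 1 and 172 to 737 for aged injury against aged sham, and over 1 to 9, 1 to 2 and 957 to 2432 for aged injury against young sham. The medians then ranged over 0.11 to 0.24, -0.09 to 0.01 and 0.10 to 0.21. Libraries of equal number did not deviate together between aged sham and young sham (correlations of -0.03, -0.07 and -0.05). Between aged injury and aged sham they did, at 0.24, 0.27 and 0.06, against -0.26 to 0.04 for unequal numbers. What the numbers mark was not given, and the main fit did not take them as pairs. Any pairing in the injury comparison is therefore left out of that fit, and only the replicate block takes the numbers into account. Each named member that was tested was counted once per comparison and other setting. Of these values, 1537 kept their side of the threshold, 126 no longer passed it, 14 newly did and 0 changed sign while called. Only values called in the main fit could stop passing, and most values were not called there.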
